A study of Homo sapiens with 6 samples.

Results

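The genes described here encode the proteins that cut introns out of pre-mRNA and choose which exons are kept. They are the SR proteins (SRSF genes), the heterogeneous nuclear ribonucleoproteins (HNRNP genes), the protein components of the spliceosomal small nuclear ribonucleoproteins (SNRP genes), the SF3A and SF3B subunits of the U2 particle, and the U2AF heterodimer. Members were taken by gene symbol, leaving out symbols that end in P plus digits, which mark processed copies. The rule found 50 of the 22152 genes in the table: 11 SR, 17 hnRNP, 11 SNRP, 9 SF3 and 2 U2AF genes.

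The data come from HaCaT cells, a spontaneously immortalized human keratinocyte line, transfected with a synthetic miR-21-3p mimic or with a negative control (NC) mimic, both at 1 nM. miR-21-3p is the passenger-strand product of the miR-21 hairpin. RNA was taken 48 h after transfection, and the sample labels describe selection of polyadenylated RNA and stranded mRNA libraries, with 3 biological replicates in each group. The comparison asks which transcripts differ between cells given the miR-21-3p mimic and cells given the control mimic.

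In the nucleus, SR proteins bind exonic enhancers and recruit the splicing machinery, while hnRNPs coat the transcript and often act against exon inclusion. The Sm proteins form a ring around each small nuclear RNA. U1 recognises the start of the intron, and U2AF and the SF3 subunits of U2 recognise its end and branch point. Levels of these mRNAs are known to move with cell growth, and several SR genes limit their own mRNA through exons that trigger decay.

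Values are normalised read counts, that is, reads per gene divided by a size factor for each library. They summed to between 25113700 and 25582700 per library, and the low values implied between 24.4 M and 28.0 M reads assigned to genes in each library. All 50 members passed the filter on low values, a value of at least 10 in at least 3 libraries, which kept 14795 genes. Of the 9 keratinocyte markers in the table, 8 had means over the 6 libraries from 7132 (TP63) to 131833 (KRT5), and KRT16 had a mean of 221. The 9 summed to 313713, 301600 and 313596 in NC mimic replicates 1, 2 and 3 and to 318701, 329655 and 306552 in the miR-21-3p mimic replicates. Of the markers of other cell types, the table held the melanocyte genes MITF (mean 477) and PMEL (mean 138), the endothelial gene VWF (mean 745) and the fibroblast gene COL1A1. Of the 17 markers in the table, counting 4 simple epithelial keratins, 5 had every miR-21-3p mimic value above every NC mimic value (KRT6A, KRT8, KRT18, SFN and DSP), 4 had every value below (TP63, KRT7, MITF and COL1A1), beside 16.5% and 14.8% of all genes tested, and 8 overlapped, KRT16 among them. In the fit described next, KRT6A, KRT18 and KRT8 were called higher (adjusted p = 0.00207, 0.00847 and 0.0221). KRT6A kept its call with each library left out, KRT18 lost it without NC mimic replicate 3 (0.0572) or miR-21-3p mimic replicate 1 (0.0565), and KRT8 kept it only without NC mimic replicate 2 or miR-21-3p mimic replicate 2, with 0.0841 to 0.112 otherwise. KRT6A had 16800, 17100 and 16500 in the NC mimic and 21500, 20700 and 21700 in the miR-21-3p mimic, and KRT8 had 14000, 16100 and 14300 against 17400, 16900 and 17900. MITF had 476, 510 and 512 against 441, 464 and 459. COL1A1 had 560, 390 and 478 in the NC mimic and 372, 378 and 364 in the miR-21-3p mimic replicates, and the part of these genes in the results was not tested. Listed markers outside these 17 were not analysed here. In bulk RNA, more transcript per cell and a different mix of cells or cell states cannot be told apart.

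The libraries of each group were not alike. NC mimic replicate 2 had the highest value of its group for 38 of the 50 members, and miR-21-3p mimic replicate 2 the lowest value of its group for 38. NC mimic replicate 1 was the lowest of its group for 36 members, and miR-21-3p mimic replicate 3 the highest of its group for 41, among them, with a tie in SF3B2, the 11 members called higher. For 31 members NC mimic replicate 2 was above miR-21-3p mimic replicate 2, whereas NC mimic replicate 1 was above miR-21-3p mimic replicate 1 for 6 members and NC mimic replicate 3 above its counterpart for 7. Over all genes tested, the first principal component (46.7% of the variance) put the NC mimic libraries at -21.3, -1.95 and -13.3 and the miR-21-3p mimic libraries at 11.8, 6.86 and 17.8, so both replicates numbered 2 were the libraries of their group nearest to the other group. Results are therefore given with all 6 libraries and without each of these libraries.

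With all 6 libraries, 11 of the 50 members were higher in the miR-21-3p mimic at an adjusted p under 0.05 (22%) and 0 were lower. Across all genes tested, limma called 904 higher (6.11%) and 689 lower (4.66%). The 11 were SRSF7, SRSF3, HNRNPAB, HNRNPR, HNRNPA2B1, SNRPD1, SNRPB, SNRPE, SNRPA, SF3B14 and SF3B2. Their log2 fold changes lay between 0.15 (SF3B2) and 0.47 (SNRPD1), that is, 11.0% to 38.9% above the control. The count of 0 lower was the same with edgeR, DESeq2 and limma-voom on recovered reads, and at an unadjusted p under 0.05 limma put 1 member lower (2%), SRSF11, and 21 higher (42%), beside 13.2% and 15.3% of all genes tested. Of the 50 log2 fold changes, 41 were above 0 and 9 below, with a median of 0.12 beside 0.00 over all genes tested. With single libraries left out, the members' median ran from 0.07 (without miR-21-3p mimic replicate 3) to 0.16 (without NC mimic replicate 2). In 15 members the lowest miR-21-3p mimic value was above the highest NC mimic value, and in 2 (SRSF11 and HNRNPH1) the highest was under the lowest. Those shares over all genes tested were 16.5% and 14.8%.

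**Figure D1:**
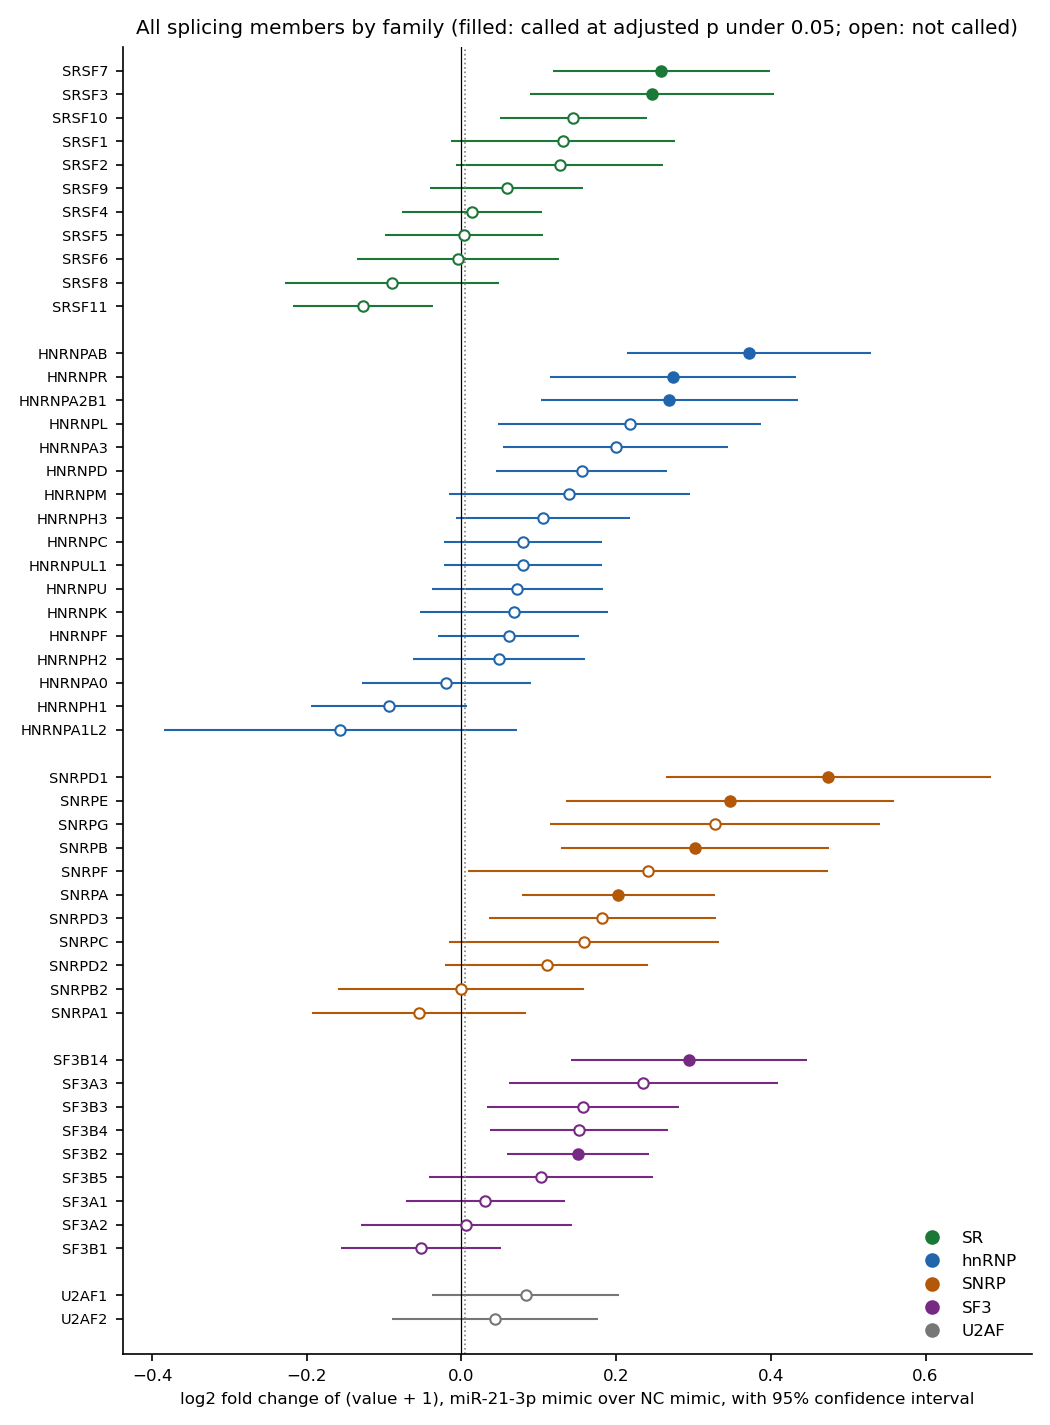
Log2 fold change of each of the 50 members (x axis, miR-21-3p mimic over NC mimic, with its 95% confidence interval), ordered within family, with filled points for the 11 members called higher. Most points lie right of 0, with SNRPD1 farthest at 0.47, and HNRNPA1L2 lies lowest at -0.16.

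The count depended strongly on single libraries. Without NC mimic replicate 2, 22 members were called higher, against 11% of all genes tested (1627), and SRSF11 was called lower, where 8.99% of all genes were lower. Without miR-21-3p mimic replicate 2, 13 members were higher against 6.08% of all genes (899) and 0 lower against 4.34%, and 9 of these 13 were among the 11. Without NC mimic replicate 1 the count was 2 (HNRNPAB and SNRPD1), and without NC mimic replicate 3, miR-21-3p mimic replicate 1 or miR-21-3p mimic replicate 3 it was 0. The calls over all genes fell as well in these fits, to 313 higher without NC mimic replicate 1, 95 without NC mimic replicate 3, 146 without miR-21-3p mimic replicate 1 and 202 without miR-21-3p mimic replicate 3. The 11 log2 fold changes stayed above 0 in all 6 fits with 1 library left out. For 9 of the 11 this was fixed in advance, since their groups did not overlap and leaving out 1 library could not reverse the direction. A limma fit with no variance trend called 50 genes in all and 0 members.

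**Figure D2:**
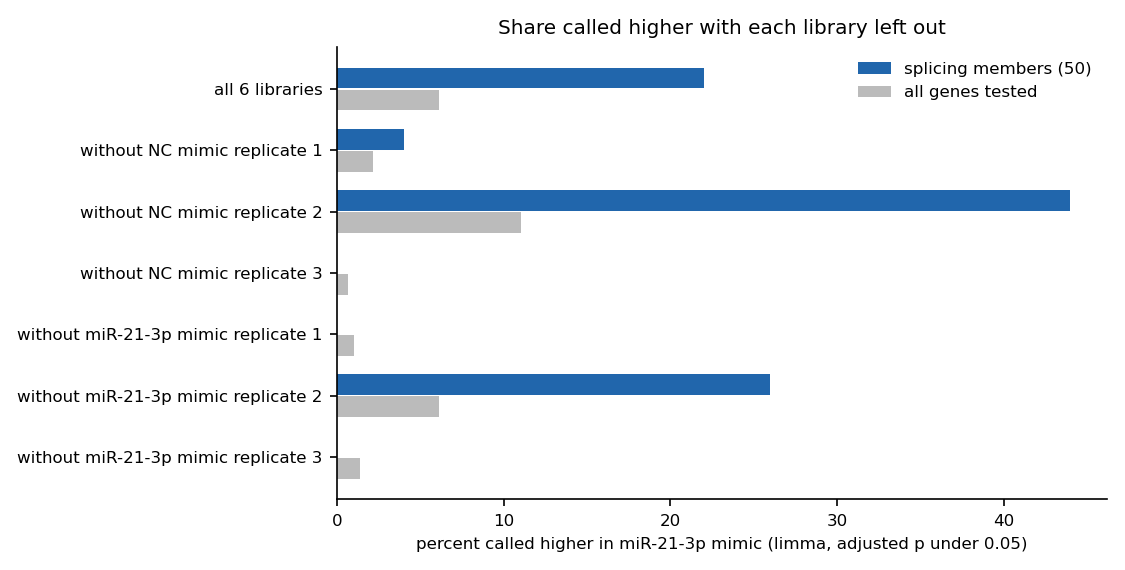
Percent called higher by limma at an adjusted p under 0.05 (x axis) among the 50 members and among all genes tested, with all 6 libraries and with each library left out in turn. The members' share runs from 44% without NC mimic replicate 2 to 0% in 3 of the fits.

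Promoter windows are shown for called members, since these genes moved in the same direction. RefSeq (GRCh38.p14) gave windows of 300 bases, 250 before to 50 after each start, for 47 of the 50 members, 46 matched by symbol and SF3B14 by its gene identifier under its current symbol SF3B6. Several members had more than 1 start, giving 66 windows. In each family with a call, the called member with the smallest adjusted p among those with a match is printed, 5′ to 3′ on the strand of the gene, with matches in capitals.
SRSF3, chr6:36594112-36594411, plus strand: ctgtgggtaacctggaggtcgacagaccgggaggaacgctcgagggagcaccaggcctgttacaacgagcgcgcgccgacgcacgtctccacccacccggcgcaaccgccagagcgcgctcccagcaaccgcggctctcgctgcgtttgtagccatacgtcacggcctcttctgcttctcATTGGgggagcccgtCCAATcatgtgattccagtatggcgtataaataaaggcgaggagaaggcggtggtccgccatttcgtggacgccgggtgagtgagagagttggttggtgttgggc
HNRNPAB, chr5:178204283-178204582, plus strand: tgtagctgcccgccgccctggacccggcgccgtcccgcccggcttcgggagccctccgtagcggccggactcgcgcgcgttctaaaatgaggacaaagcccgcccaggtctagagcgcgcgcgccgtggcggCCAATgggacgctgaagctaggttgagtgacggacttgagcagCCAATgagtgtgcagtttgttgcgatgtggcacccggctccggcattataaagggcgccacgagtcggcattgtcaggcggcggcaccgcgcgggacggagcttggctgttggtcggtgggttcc
SNRPB, chr20:2470740-2471039, minus strand: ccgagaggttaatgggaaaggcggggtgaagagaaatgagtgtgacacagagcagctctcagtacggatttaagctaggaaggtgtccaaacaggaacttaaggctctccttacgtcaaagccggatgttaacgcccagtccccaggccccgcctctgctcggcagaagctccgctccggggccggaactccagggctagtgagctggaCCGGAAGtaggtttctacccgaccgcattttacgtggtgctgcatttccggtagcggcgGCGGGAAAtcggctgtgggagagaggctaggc
SF3B14, chr2:24076277-24076576, minus strand: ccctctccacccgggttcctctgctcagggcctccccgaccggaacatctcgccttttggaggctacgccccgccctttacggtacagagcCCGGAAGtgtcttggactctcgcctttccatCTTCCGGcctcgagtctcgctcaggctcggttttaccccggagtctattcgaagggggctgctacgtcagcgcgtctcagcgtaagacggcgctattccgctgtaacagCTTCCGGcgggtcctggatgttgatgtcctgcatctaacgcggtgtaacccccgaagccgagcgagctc
The letters searched on both strands were CCAAT (the CCAAT box), CCGGAAG (an ETS-type core), TTTCCCGC or TTTGGCGC (E2F-type) and CACGTG (the E-box). The SRSF3 window holds CCAAT in both orientations, with first bases 70 and 55 bases before the start, and HNRNPAB holds it at 118 and 75 bases before. SNRPB has the ETS-type letters 41 bases before its start and the E2F-type letters 18 bases after it, and SF3B14 has the ETS-type letters at 159, 128 and 19 bases before its start. No matches of different motifs overlap in these windows.
Over the members, CCGGAAG was in 20 of 66 windows (30.3%) and in 10.3% of the 35116 windows of the whole table. CCAAT was in 24 of 66 (36.4%) and in 34.6% of all windows, the E2F-type letters in 5 (7.58%) and 2.27%, and CACGTG in 8 (12.1%) and 7.26%. Of the 10 called members with a window, SF3B14, SF3B2, SNRPB and SNRPE held CCGGAAG, and HNRNPA2B1, HNRNPAB, HNRNPR, SNRPA and SRSF3 held CCAAT. These are matches of letters and not measured sites.

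The SR family had 2 of 11 members called higher, SRSF7 and SRSF3 (18.2%, beside 6.11% of all genes tested). Its median log2 fold change was 0.06. That median ran from 0.03 (without NC mimic replicate 1) to 0.08 (without NC mimic replicate 2) with single libraries left out. SRSF7 (ENSG00000115875), an SR protein with a zinc knuckle, had normalised read counts of 2330, 2780 and 2470 in NC mimic replicates 1, 2 and 3 and of 3070, 2840 and 3140 in the miR-21-3p mimic replicates. Every miR-21-3p mimic library was above every NC mimic library, and the closest pair was replicate 2 of each group. The means were 2527 ± 230 and 3017 ± 157 (SD, n = 3), a log2 fold change of 0.26 with a standard error of 0.06 and an adjusted p of 0.0269. SRSF3 (ENSG00000112081), the smallest SR protein, which also takes part in mRNA export, was at 3610, 4630 and 4030 in the NC mimic and at 4790, 4700 and 4990 in the miR-21-3p mimic. The groups did not overlap, with NC mimic replicate 2 only slightly below the miR-21-3p mimic libraries. From 4090 ± 513 to 4827 ± 148 (SD, n = 3), the log2 fold change was 0.25 (SE 0.07, adjusted p = 0.0492). SRSF7 kept its call without NC mimic replicate 2 (adjusted p = 0.00111) and without miR-21-3p mimic replicate 2 (0.0241), and gave 0.0936 without NC mimic replicate 1, 0.113 without NC mimic replicate 3, 0.112 without miR-21-3p mimic replicate 1 and 0.105 without miR-21-3p mimic replicate 3. SRSF3 was called only without NC mimic replicate 2 (0.000777), with 0.0656 without miR-21-3p mimic replicate 2 and 0.138 to 0.153 in the other 4 fits. Of the 14 alternatives that keep all libraries, SRSF7 kept its call in 13 and SRSF3 in 6.

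SRSF11 and SRSF2 had the highest read counts of the SR family and were not called. SRSF11, an SR-related protein that binds U2AF, had 10000, 9650 and 10200 in the NC mimic and 9090, 9180 and 9050 in the miR-21-3p mimic. All 3 miR-21-3p mimic values were below all NC mimic values, with a log2 fold change of -0.13 (SE 0.04, adjusted p = 0.0701). Its adjusted p without NC mimic replicate 2 was 0.0363, at the low end of 0.0363 to 0.252 with single libraries left out. SRSF2, an exonic enhancer binding protein, had 6850, 8010 and 7160 in the NC mimic and 7950, 7560 and 8510 in the miR-21-3p mimic. Its groups overlapped, since NC mimic replicate 2 was above miR-21-3p mimic replicates 1 and 2, and the log2 fold change was 0.13 (SE 0.06, adjusted p = 0.197). It was called without NC mimic replicate 2 (0.0238), at the low end of 0.0238 to 0.495 with single libraries left out. SRSF10, just outside the threshold (adjusted p = 0.0533), had 3840, 4020 and 3800 in the NC mimic and 4320, 4190 and 4380 in the miR-21-3p mimic, with no overlap. It was singled out after its values were seen, and was called without NC mimic replicate 2 (0.0234, with 0.0587 to 0.201 in the other 5 fits). The log2 fold changes of SRSF1, SRSF9, SRSF4, SRSF5, SRSF6 and SRSF8 lay between -0.09 (SRSF8) and 0.13 (SRSF1), with overlapping groups in each.

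**Figure D3:**
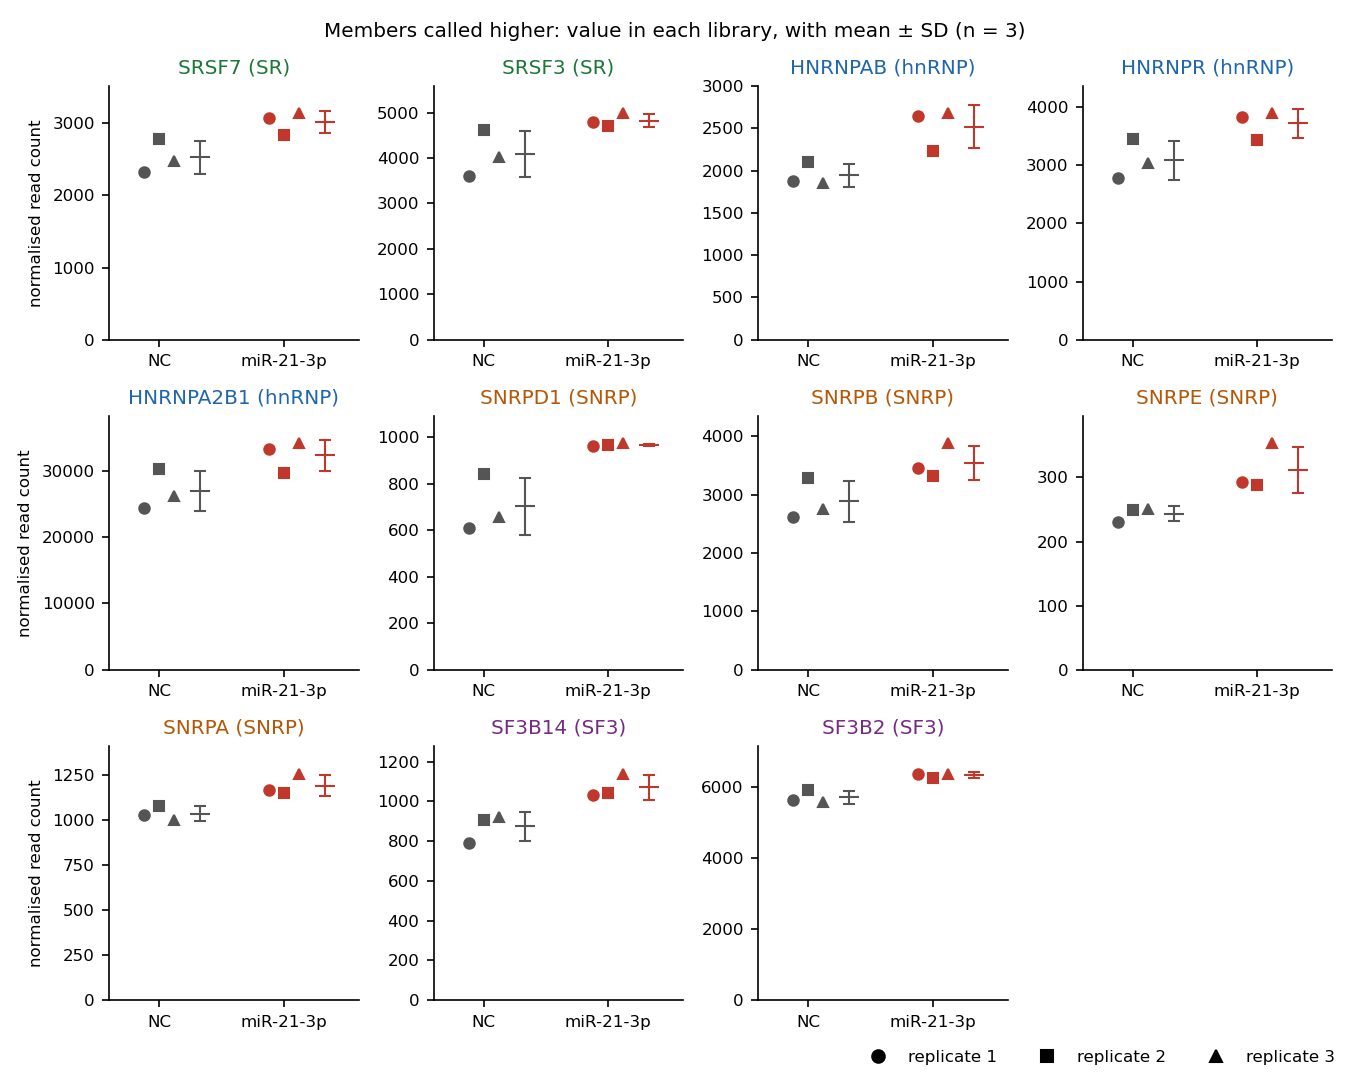
Normalised read count (y axis, from 0) of the 11 members called higher in each library, by group, with marker shapes for replicates 1, 2 and 3 and the mean ± SD beside them. NC mimic replicate 2 (square) is the highest NC mimic value in 9 of the 11 panels, and the groups overlap in HNRNPR and HNRNPA2B1.

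Among the hnRNP genes, 3 of 17 were called higher, HNRNPAB, HNRNPR and HNRNPA2B1 (17.6%, beside 6.11% of all genes tested). The family median was 0.08. With single libraries left out, the median lay between 0.05 (without NC mimic replicate 1) and 0.12 (without NC mimic replicate 2). HNRNPAB (ENSG00000197451), an A/B-type RNA-binding protein, had 1880, 2100 and 1850 in the NC mimic and 2650, 2230 and 2680 in the miR-21-3p mimic replicates. The miR-21-3p mimic values were all higher, replicate 2 by the least. Its means of 1943 ± 137 and 2520 ± 252 (SD, n = 3) gave a log2 fold change of 0.37 (SE 0.07, adjusted p = 0.0113). HNRNPR (ENSG00000125944), which resembles SYNCRIP, had 2780, 3450 and 3040 against 3840, 3440 and 3900. Here the groups overlapped at a single pair, NC mimic replicate 2 being slightly above miR-21-3p mimic replicate 2. The log2 fold change from 3090 ± 338 to 3727 ± 250 (SD, n = 3) was 0.27 (SE 0.07, adjusted p = 0.0346). HNRNPA2B1 (ENSG00000122566), the member with the most reads, which takes part in exon choice and RNA transport, had 24300, 30200 and 26200 in the NC mimic and 33200, 29700 and 34100 in the miR-21-3p mimic. It overlapped at the same pair of libraries, and rose from 26900 ± 3012 to 32333 ± 2325 (SD, n = 3), a log2 fold change of 0.27 (SE 0.08, adjusted p = 0.0424).

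HNRNPAB was also called without NC mimic replicate 1 (adjusted p = 0.0421), NC mimic replicate 2 (0.000764) and miR-21-3p mimic replicate 2 (0.00563), and its adjusted p was 0.0680 without NC mimic replicate 3, 0.0665 without miR-21-3p mimic replicate 1 and 0.0512 without miR-21-3p mimic replicate 3. HNRNPR and HNRNPA2B1 were called without NC mimic replicate 2 (0.00112 and 0.00158) and without miR-21-3p mimic replicate 2 (0.0240 and 0.0264). Without NC mimic replicate 1, NC mimic replicate 3, miR-21-3p mimic replicate 1 or miR-21-3p mimic replicate 3, the adjusted p ran from 0.119 to 0.136 for HNRNPR and from 0.145 to 0.160 for HNRNPA2B1. Of the 14 alternatives that keep all libraries, HNRNPAB and HNRNPR kept their calls in 13 and HNRNPA2B1 in 10.

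HNRNPF, which binds G-rich RNA and had the second most reads of the family, had 14400, 14900 and 14600 in the NC mimic and 15100, 15500 and 15200 in the miR-21-3p mimic. Its groups did not overlap, but the difference was small, a log2 fold change of 0.06 (SE 0.04, adjusted p = 0.363). The 14 hnRNP genes not called had log2 fold changes from -0.16 (HNRNPA1L2) to 0.22 (HNRNPL), 11 of them above 0. HNRNPD, HNRNPA3 and HNRNPL came nearest to the threshold, with adjusted p of 0.0701, 0.0749 and 0.0925, and each was called when either replicate 2 was left out. HNRNPH1, singled out after its values were seen, had 9870, 9630 and 9680 in the NC mimic and 9280, 8610 and 9470 in the miR-21-3p mimic, lower in all 3 libraries, with a log2 fold change of -0.09 and an adjusted p of 0.205. HNRNPU had a log2 fold change of 0.07 (adjusted p = 0.377), and its antisense partner HNRNPU-AS1 one of -0.04 (adjusted p = 0.655). Their reads are uncertain, because the strand setting used for counting is not given in the sources used here.

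With all 6 libraries, the SNRP genes had the largest share called, 4 of 11 (36.4%, beside 6.11% of all genes tested). Their median log2 fold change was 0.20. This order of families did not hold in each fit. Without NC mimic replicate 2, 6 of 11 SNRP and 5 of 9 SF3 genes were called higher, beside 11% of all genes tested. Without NC mimic replicate 1, the SNRP and hnRNP families had 1 call each, beside 2.12% of all genes. SNRPD1 (ENSG00000167088), an Sm ring protein, had 609, 843 and 657 in the NC mimic replicates and 963, 965 and 974 in the miR-21-3p mimic replicates. The miR-21-3p mimic libraries were nearly equal and all above the NC mimic, whose replicate 2 stood apart from the other 2. The means were 703 ± 124 and 967 ± 5.86 (SD, n = 3), a log2 fold change of 0.47 (SE 0.10, adjusted p = 0.0131). SNRPB (ENSG00000125835), which encodes the Sm B and B′ proteins, had 2620, 3290 and 2750 against 3450, 3320 and 3880. The groups came closest at replicate 2 and did not overlap, at a log2 fold change of 0.30 (2887 ± 355 and 3550 ± 293, SD, n = 3, SE 0.08, adjusted p = 0.0329). SNRPE (ENSG00000182004), also an Sm ring protein, had 231, 249 and 251 in the NC mimic and 293, 288 and 353 in the miR-21-3p mimic. Replicate 3 was the highest of the miR-21-3p mimic, and the groups were apart (244 ± 11.0 and 311 ± 36.2, SD, n = 3), with a log2 fold change of 0.35 (SE 0.10, adjusted p = 0.0407). SNRPA (ENSG00000077312), the U1-A protein, had 1030, 1080 and 999 in the NC mimic and 1170, 1150 and 1260 in the miR-21-3p mimic. No library crossed over, and the log2 fold change was 0.20 (1036 ± 40.9 and 1193 ± 58.6, SD, n = 3, SE 0.06, adjusted p = 0.0420).

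By role, a grouping made after the values were seen, 3 of the 7 Sm ring genes were called (SNRPD1, SNRPB and SNRPE) and 5 had groups that did not overlap, beside 6.11% and 16.5% of all genes tested. All 7 had log2 fold changes above 0, from 0.11 (SNRPD2) to 0.47 (SNRPD1), as had 51% of all genes tested. SNRPG missed the threshold narrowly, with 171, 181 and 186 in the NC mimic, 206, 238 and 233 in the miR-21-3p mimic and an adjusted p of 0.0515. SNRPD3, with the second most reads of the family, had 2470, 2890 and 2460 in the NC mimic and 3010, 2740 and 3110 in the miR-21-3p mimic. It overlapped at replicate 2 only, with a log2 fold change of 0.18 (SE 0.07, adjusted p = 0.101), and without NC mimic replicate 2 it was called (0.00630, with 0.0560 to 0.317 in the other 5 fits). The U1 genes SNRPA and SNRPC had log2 fold changes of 0.20 and 0.16, while the U2 genes SNRPA1 and SNRPB2 had -0.05 and 0.00, with overlapping groups in SNRPC, SNRPA1 and SNRPB2. Whether these roles differ from each other was not tested. Without NC mimic replicate 1 the adjusted p of SNRPD1 was 0.0456, while SNRPB, SNRPE and SNRPA had 0.122, 0.126 and 0.100. Without NC mimic replicate 3 the 4 genes had 0.0707, 0.133, 0.112 and 0.172, without miR-21-3p mimic replicate 1 they had 0.0608, 0.0955, 0.0949 and 0.118, and without miR-21-3p mimic replicate 3 they had 0.0506, 0.128, 0.164 and 0.159, in the order SNRPD1, SNRPB, SNRPE and SNRPA. All 4 were called without NC mimic replicate 2 (adjusted p from 5.88e-05 to 0.0298) and without miR-21-3p mimic replicate 2 (from 0.0266 to 0.0480). With all libraries kept, SNRPD1 and SNRPB were called in 13 of 14 alternatives, SNRPE in 12 and SNRPA in 11.

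Small Sm genes have processed copies elsewhere in the genome, and reads may be split between a gene and its copies, so these levels are uncertain. The table held 15 rows named as copies of 8 members, of which 13 passed the filter. SNRPEP4 had 255, 314 and 236 in the NC mimic and 302, 313 and 323 in the miR-21-3p mimic, a mean of 105% of that of SNRPE itself. Summed with its copies SNRPEP2 and SNRPEP4, SNRPE came to 623, 667 and 637 in the NC mimic and 756, 757 and 845 in the miR-21-3p mimic. The sums did not overlap either, and their log2 fold change was 0.29 (adjusted p = 0.0194). SNRPG summed with SNRPGP2, SNRPGP4 and SNRPGP10 had 319, 372 and 377 against 444, 458 and 471, a log2 fold change of 0.37 that passed the threshold (adjusted p = 0.0186). HNRNPR, HNRNPA3, HNRNPK, SF3A3, SNRPF and SRSF10 summed with their copies stayed on the same side of the threshold as alone. In the same fit 12 members were called higher, the 11 and SNRPG.

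In the SF3 family, 2 of 9 genes were called higher, SF3B14 and SF3B2 (22.2%, beside 6.11% of all genes tested). The family median was 0.15. SF3B14 (ENSG00000115128), the subunit that contacts the branch point adenosine, had 791, 907 and 923 in the NC mimic and 1030, 1040 and 1140 in the miR-21-3p mimic. The groups were separate, and here NC mimic replicate 1 was the low library of its group. Means of 874 ± 72.0 and 1070 ± 60.8 (SD, n = 3) gave a log2 fold change of 0.29 (SE 0.07, adjusted p = 0.0225). SF3B2 (ENSG00000087365), a scaffold subunit of SF3b, had 5620, 5900 and 5580 against 6370, 6240 and 6370. All miR-21-3p mimic values were higher by more than the spread within either group (5700 ± 174 and 6327 ± 75.1, SD, n = 3), at a log2 fold change of 0.15 (SE 0.04, adjusted p = 0.0402). SF3B14 gave adjusted p of 0.00781 without NC mimic replicate 2 and 0.0352 without miR-21-3p mimic replicate 2, and lost its call without NC mimic replicate 1 (0.0722), NC mimic replicate 3 (0.0636), miR-21-3p mimic replicate 1 (0.0713) and miR-21-3p mimic replicate 3 (0.0973). SF3B2 was called only without NC mimic replicate 2 (0.0161), with 0.0568 without miR-21-3p mimic replicate 2 and 0.105 to 0.172 without NC mimic replicate 1, NC mimic replicate 3, miR-21-3p mimic replicate 1 or miR-21-3p mimic replicate 3. Of the 14 alternatives that keep all libraries, 13 called SF3B14 and 10 called SF3B2. SF3B1, the branch point clamp and the SF3 gene with the most reads, had 11400, 11100 and 11800 in the NC mimic and 11100, 11500 and 10500 in the miR-21-3p mimic, with overlapping groups, a log2 fold change of -0.05 and an adjusted p of 0.506. The other 6 genes, SF3A3, SF3B3, SF3B4, SF3B5, SF3A1 and SF3A2, had log2 fold changes from 0.01 to 0.24, with SF3A3 nearest to the threshold (adjusted p = 0.0785).

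Neither U2AF gene was called. U2AF1, which reads the AG at the end of the intron, had 1700, 1830 and 1780 in the NC mimic and 1820, 1800 and 2010 in the miR-21-3p mimic, a log2 fold change of 0.08 (SE 0.06, adjusted p = 0.351). U2AF2, which binds the polypyrimidine tract, had 2740, 2880 and 2580 against 2880, 2580 and 3000, a log2 fold change of 0.04 (SE 0.06, adjusted p = 0.678). The groups overlapped in both, and without miR-21-3p mimic replicate 3 the log2 fold change of U2AF2 was 0.00, just below 0.

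Summed over its members, each family took a larger mean share of the library in the miR-21-3p mimic, and the median log2 fold change of each family kept its sign under every scaling tried. Each median also kept its sign with single libraries left out, though its size moved. The U2AF median, 0.06 with all libraries, ran from 0.02 (without miR-21-3p mimic replicate 3) to 0.11 (without miR-21-3p mimic replicate 2). In ppm of the library total, the SNRP sum was 433, 511 and 443 in the NC mimic and 524, 507 and 569 in the miR-21-3p mimic, a difference of 15.4%. Replicate 2 overlapped between the groups. The hnRNP sum was 3961, 4494 and 4136 against 4667, 4329 and 4796 ppm, a difference of 9.53% that overlapped at the same libraries. A large part of it came from HNRNPA2B1. In normalised read counts the mean hnRNP sum was 106657 in the NC mimic and 116417 in the miR-21-3p mimic, and HNRNPA2B1 alone had 26900 and 32333. The SF3 sum was 1144, 1195 and 1162 against 1224, 1210 and 1250, with no overlap, at 5.23%. On the scale of the normalised read counts the SNRP sums, 11012, 12911 and 11327 against 13268, 12975 and 14287, did not overlap either. For the SR and U2AF genes the sums differed by 4.11% and 4.67%, with overlap in both. The SR sum was 1853, 2021 and 1941 in the NC mimic and 2035, 1931 and 2088 ppm in the miR-21-3p mimic. For U2AF the values were 175, 186 and 171 against 186, 171 and 199 ppm. In both, miR-21-3p mimic replicate 3 was the highest library, and the dependence of these differences on single libraries was not tested. All members together took 7566, 8408 and 7853 ppm in the NC mimic and 8636, 8148 and 8903 ppm in the miR-21-3p mimic.

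**Figure D4:**
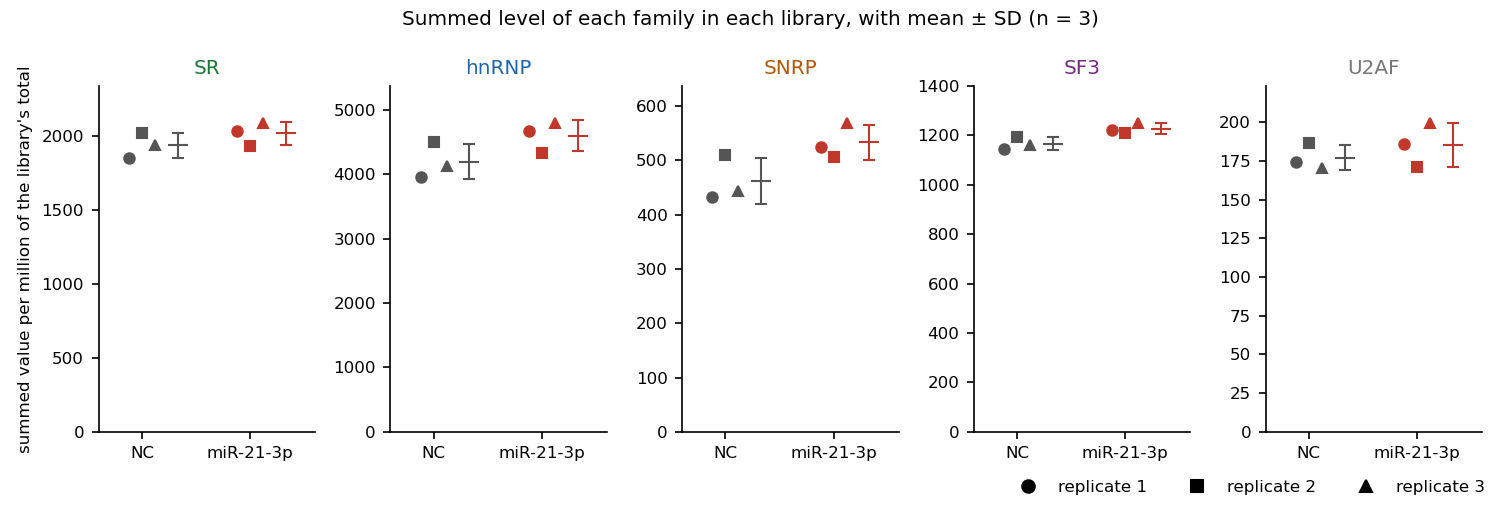
Summed value of each family in ppm of the library total (y axis, from 0) in each library, by group, with mean ± SD. NC mimic replicate 2 (square) is the highest NC mimic library in all 5 panels, and on this scale only the SF3 panel has groups that do not overlap.

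Levels between genes were compared as reads per kilobase of exon, with exon lengths from GENCODE release 29, which may differ from the authors' annotation. A length was found for 49 members. In the NC mimic HNRNPF was highest at 4498 ± 77.4 reads per kilobase (SD, n = 3), followed by HNRNPA2B1 at 2903 ± 325, SRSF2 at 2433 ± 199 and SNRPB at 2259 ± 278. SRSF2 and SNRPB differed by less than the SD of either. SNRPF was lowest at 53.7 ± 4.29, followed by SNRPG at 99.9 ± 4.25, HNRNPA1L2 at 139 ± 12.1 and SNRPD1 at 143 ± 25.2. Between the 7 genes of the Sm ring the levels thus ran from 53.7 to 2259 reads per kilobase, with copies taking an unknown share of the reads of the small genes. The length used was the union of all annotated exons, which may be longer than the transcript present. For the Sm ring genes it ran from 1.28 kb (SNRPB) to 4.91 kb (SNRPD1), and its part in the order of levels was not tested. Within the SR family the range was from SRSF10 at 378 to SRSF2, and within SF3 from SF3A3 at 231 to SF3B5 at 1751.

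**Figure D5:**
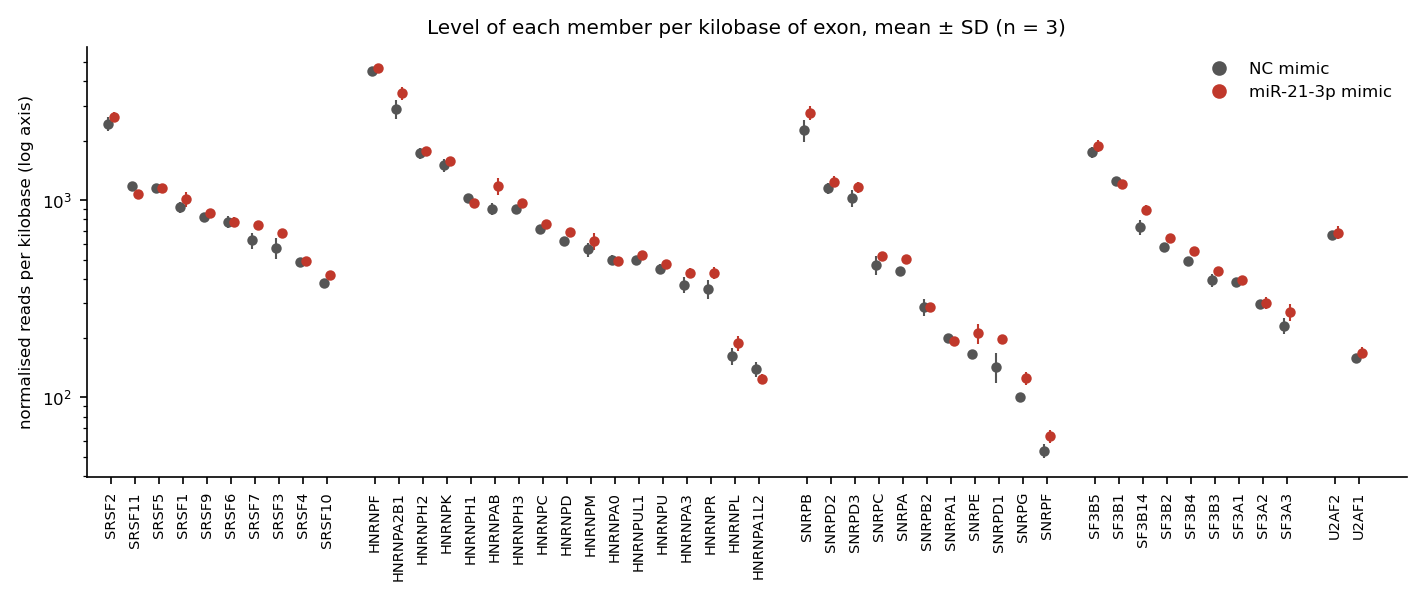
Level of the 49 members with a length, in normalised reads per kilobase of exon (y axis, logarithmic), mean ± SD over 3 libraries of each group, ordered within family by the NC mimic level. HNRNPF is highest and SNRPF lowest in the NC mimic, at 4498 and 53.7.

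Other splicing genes, taken from lists by textbook role, had 16 of 158 called higher (10.1%, beside 6.11% of all genes tested) and 1 lower (0.633%, beside 4.66%), with a median log2 fold change of 0.07. In either direction the share was 10.8%, as over all genes tested. At an unadjusted p under 0.05, 43 were higher (27.2%, beside 15.3% of all genes) and 4 lower (2.53%, beside 13.2%). A fit with the replicate number as a replicate block called 6 of the 158 in either direction (3.8%, beside 8.06% of all genes), and limma without a variance trend called 0 (beside 0.338%). U1, U2, U5 and tri-snRNP proteins had 4 of 29 called higher, led by PRPF4 of the U4/U6 particle, which had 1810, 1920 and 1840 in the NC mimic and 2170, 2080 and 2410 in the miR-21-3p mimic (log2 fold change 0.26, adjusted p = 0.0195). Among factors of snRNP assembly, 2 of 16 were higher, led by PRMT5, the methyltransferase that acts on Sm proteins, at 1960, 2210 and 2020 against 2500, 2300 and 2760 (0.29, adjusted p = 0.0220). Both genes were higher in all 3 miR-21-3p mimic libraries than in any NC mimic library. The LSm list had 1 of 12 higher, LSM11 of the U7 particle (0.23, adjusted p = 0.0260), and the Prp19 and catalytic-step list 2 of 27, led by the isomerase PPIL1 (0.43, adjusted p = 0.0351). The exon junction list had 2 of 11 higher, led by the export adaptor ALYREF (0.35, adjusted p = 0.0367, with overlap, NC mimic replicate 2 at 857 being above miR-21-3p mimic replicate 2 at 846), and the other regulators 3 of 33, led by the nuclear matrix protein MATR3 (0.18, adjusted p = 0.0274). None of the 9 minor spliceosome genes was called by limma in either direction, where 1 was higher and 0 lower at an unadjusted p under 0.05. Over all genes tested, 10.8% were called in either direction, and 15.3% were higher and 13.2% lower at that unadjusted p.

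Of the SR protein kinases, SRPK1 and CLK1 were called, in opposite directions, and SRPK2, CLK2, CLK3, CLK4 and DYRK1A were not. SRPK1 had 2830, 2810 and 2840 in the NC mimic and 3160, 3010 and 3320 in the miR-21-3p mimic, a log2 fold change of 0.16 (SE 0.05, adjusted p = 0.0483) whose call held in 4 of the 14 alternatives that keep all libraries. CLK1, a nuclear kinase of SR proteins whose own splicing is regulated, had 1760, 1560 and 1800 against 1410, 1410 and 1430, a log2 fold change of -0.27 (SE 0.06, adjusted p = 0.0176), and was the gene called lower. Neither overlapped between the groups. That list had 2 of 21 higher and 1 lower. Over all these lists, 32 genes were called without NC mimic replicate 2 (20.3%, beside 20% of all genes). Without miR-21-3p mimic replicate 2 the count was 15 (9.49%, beside 10.4%). It was 0 without NC mimic replicate 1 (beside 3.66% of all genes) or NC mimic replicate 3 (beside 1.19%). Without miR-21-3p mimic replicate 1 or miR-21-3p mimic replicate 3 it was also 0, beside 1.87% and 2.47% of all genes.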

How the data were processed

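The authors deposited a table of a normalised signal per gene, counts of reads divided by DESeq2 size factors and rounded to 3 digits. The submitters' processing notes name bcl2fastq 2.18.12, cutadapt 1.15, TopHat2 2.1.1, featureCounts from Subread 1.5.2 and DESeq2. The paper's methods speak of small RNA libraries where the labels give stranded mRNA libraries, and the labels were followed. The genome build and annotation are not given in the sources used here. The members and lists were chosen with earlier results of these data known. Since the values were normalised and not raw, limma 3.58.1 with a variance trend was fitted to log2(value + 1) in place of the planned count test. The fold changes are on that scale, which understates the change of low genes. Genes with a value of at least 10 in at least 3 libraries were tested (14795), with group as the only term and Benjamini-Hochberg adjustment over all of them. Whole reads were recovered: 99.4% to 100% of values up to 100 were within 0.1 of a whole multiple of the value of 1 read. On those reads edgeR 4.0.16 called 1641 genes, and DESeq2 1.42.0 called 1603. Larger values are recovered only to the 3 digits deposited. Replicates of a group differed by more than counting noise in each pair. Named genes were every member called, the 2 members with the most reads in each family, both members of a family with no call, and in each list the called gene with the smallest adjusted p in each direction. The grouping of SNRP genes by particle was made after the values were seen. The alternatives are scalings, count tests, filters, pseudocounts and single libraries left out. They also include a replicate block, limma without a variance trend, and members summed with their processed copies.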

Additional observations from a re-analysis of the deposited data

How the results depend on the processing

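With all 6 libraries limma called 1593 genes (904 higher, 689 lower), 11 members and 17 other splicing genes. Leaving out each library in turn gave 176 to 2957 genes, 95 to 1627 higher and 81 to 1330 lower, 0 to 23 members, 0 to 22 of them higher, and 0 to 32 other splicing genes. These fits have fewer libraries, and the reason that libraries differ was not tested. Without a variance trend (chosen after seeing the data) limma called 50 genes, 24 higher and 26 lower, with 0 members and 0 other splicing genes. The cause was not tested. All other settings stayed within 1.5 times of the counts of genes and members given first. Members called were 10 with RLE scaling, 8 with upper-quartile scaling, 10 with library totals, 10 with DESeq2, 10 with limma-voom, 8 with no filter and 11 with the stricter filter. Alternatives chosen after seeing the data gave 10 with TMM scaling, 9 with edgeR, 11 with a pseudocount of 0.5 or 10, and 12 with copies summed.

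With the replicate number as a replicate block, 1193 genes (8.06%), 8 members and 6 other splicing genes (3.8% of 158) were called, and the cause was not tested. Deviations of libraries with the same number correlated at 0.00, -0.20 and -0.16. For each NC mimic library, the best correlation with a miR-21-3p mimic library of another number was higher, at 0.13, 0.27 and 0.09. With 3 libraries in each group, these correlations cannot show whether the numbers mark paired samples.

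Across 26 named genes and 20 settings, 392 results kept their direction and side of the threshold, 124 kept the direction but lost the call, 3 gained a call and 1 reversed. U2AF2, not called in any setting, ran from -0.00 (-0.00248, without miR-21-3p mimic replicate 3) to 0.11 with single libraries left out, and the cause was not tested. Of the 14 settings that keep all libraries, SRPK1 kept its call in 4, SRSF3 in 6, SF3B2 and HNRNPA2B1 in 10, SNRPA in 11, SNRPE in 12, and HNRNPAB, HNRNPR, SNRPD1, SNRPB, SF3B14 and SRSF7 in 13. Each group had 3 libraries, called members were at most 1.39-fold higher, and many adjusted p lay near the threshold. Why calls changed between settings was not tested.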

Other observations

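Outside the members themselves, 12 of the 13 processed copies that were tested had log2 fold changes above 0, where 51% of all genes tested did, and 1 was called higher (7.69%, beside 6.11% of all genes tested). HNRNPA3P5 had 395, 547 and 482 in the NC mimic and 612, 580 and 658 in the miR-21-3p mimic (log2 fold change 0.39, adjusted p = 0.0346), while HNRNPA3 itself was not called (0.20, adjusted p = 0.0749). HNRNPKP4 had 2540, 2440 and 2580 against 2570, 2610 and 2690, and HNRNPKP2 673, 672 and 602 against 678, 719 and 729, neither called. Whether these rows hold reads of the copies or of their parent genes was not tested.

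The lists of other splicing genes held genes that missed the threshold in the lower direction. PTBP3, a polypyrimidine tract binding protein, had 14900, 15400 and 16000 in the NC mimic and 14000, 14400 and 12900 in the miR-21-3p mimic (log2 fold change -0.17, adjusted p = 0.0578). CLK4, a kinase related to CLK1, had 1470, 1190 and 1530 against 1180, 1250 and 1100 (-0.24, adjusted p = 0.0881). PTBP3 did not overlap between the groups and CLK4 did. Both were singled out after their values were seen.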
